A study of Homo sapiens with 8 samples.

Results

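The RSK and MSK kinases, encoded by RPS6KA1 to RPS6KA6, were followed through a microarray experiment on a pair of colon cancer cell lines kept in normal or low oxygen. The members were all probe sets that the platform annotation assigns to exactly 1 of the 6 gene symbols. That gave 15 probe sets for 6 genes, of 54613 probe sets without the array's controls and 19775 genes with a probe set of their own. The family was picked because RPS6KA6 was already known from these arrays to be far lower in DKS-5, so the differences of its members between the lines are given as a description, with no test. RPS6KA6 was near the floor of the array in DKS-5 and clearly measured in DKO-3. At both oxygen levels, 1 probe set of RPS6KA2 differed in the same direction. In normoxia, 226335_at of RPS6KA3 and 204632_at of RPS6KA4 were higher in DKS-5, by 1.09 and 1.23 on the log2 scale. In hypoxia the lines overlapped for both. None of the 11 family probe sets tested responded to hypoxia past the threshold, those of RPS6KA6 being readable in DKO-3 only.

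DKS-5 carries the label K-ras mutant, and DKO-3 the label K-ras knockout (wild-type); the growth protocol calls DKO-3 wild-type. As background, both are known as derivatives of the DLD-1 colorectal cancer line. Each line was kept at 21% O2, called normoxia here, or for 12 h at 1% O2, called hypoxia, and each of the 4 groups has 2 arrays. Each genotype is represented by 1 cell line, so genotype and line cannot be told apart, and the K-ras gene itself was not analysed here. The labels do not say whether the samples of a group are separate cultures; the p-values therefore cover no more than sample-to-sample spread, which may be technical.

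RSK kinases are serine/threonine kinases that carry a pair of kinase domains in 1 polypeptide. ERK docks to the C-terminal part and activates that domain, and PDPK1 then completes activation of the N-terminal domain, which phosphorylates substrates in the cytoplasm and nucleus. The MSK kinases share this layout but are nuclear, respond to both ERK and p38, and phosphorylate CREB and histone H3; in colon cancer, mutant K-ras is a well-known activator of the RAF, MEK and ERK cascade that feeds into both branches. The arrays measure transcripts, not kinase activity.

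The deposited values were MAS5 signals, a linear probe set brightness. They were scaled so that the trimmed mean of every array equalled 172.1, from 132.5 to 201 as deposited. Of 6 hypoxia check genes 5 were tested, and all 5 rose in both lines, 5 in DKS-5 and 4 in DKO-3 past the threshold. The check genes were listed with earlier results of these data known, so their rise is no independent check. NDRG1, a hypoxia-induced stress gene, rose by 3.82 ± 0.20 (SE) and 2.34 ± 0.20 on the log2 scale (adjusted p = 3.45e-07 and 0.000307, limma with Benjamini-Hochberg adjustment). Each check gene was represented by its brightest probe set. By that probe set VEGFA, the gene not past the threshold in DKO-3, rose there by 0.58 ± 0.24 (adjusted p = 0.566, limma). In DKS-5 it rose by 2.12 ± 0.24. The other tested probe sets of VEGFA rose by 1.08, 1.09 and 0.87 in DKO-3. In DKS-5 they rose by 1.04, 1.18 and 1.24, so the weak rise in DKO-3 was seen with the brightest probe set only. Of 12 colon epithelial markers 9 were bright enough to test, EPCAM and CDH1 reaching 7750 and 5860, whereas CDX1, GPA33 and LGALS4 were not. The lines differed in some: KRT20 read 6.2 to 15.5 in DKS-5 and 301 to 445 in DKO-3, and VIL1 54.8 to 103 in DKS-5 and 12.8 to 17.6 in DKO-3. Of 15 markers of other cells on the array, 3 were bright enough to test (COL1A1, ACTA2 and HBB), and the highest signal of any of the other 12 was 24.3. The ratio of 3' to 5' ACTB signal, a sign of RNA quality and amplification, ran from 11.02 to 55.09, and both DKO-3 hypoxia arrays (11.47 and 11.02) were the lowest. They were also lowest for GAPDH, at 1.53 and 1.611, where the others ran from 2.088 to 4.235.

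RPS6KA6 encodes RSK4, the X-linked family member described as active with little need for growth factor stimulation. Its probe set 220738_s_at read 8.17 and 0.805 in DKS-5 at 21% O2 and 3.62 and 1.74 at 1% O2, against 319 and 207 in DKO-3 at 21% O2 and 227 and 182 at 1% O2. All 4 DKS-5 arrays were under the scaled signal of 13.8 that marks the filter on dim probe sets, and all 4 DKO-3 arrays were far above it. As each array averages over a whole culture, fewer cells with the transcript and less transcript per cell cannot be told apart. The group means were 4.49 ± 5.21 and 2.68 ± 1.33 in DKS-5 and 263 ± 79.1 and 205 ± 32 in DKO-3 (normoxia, then hypoxia; SD, n = 2 here and below).

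A second probe set, 228503_at, read 3 and 4.66, then 2.93 and 1.22, in DKS-5 normoxia and hypoxia. In DKO-3 it read 183 and 133 in normoxia and 123 and 151 in hypoxia. The third, 220737_at, read 6.06 and 3.49, then 1.56 and 3.92, in DKS-5, against 68.3 and 83.9, then 92.4 and 70.4, in DKO-3. Neither probe set showed any overlap between the lines, and within DKO-3 the arrays of the 2 oxygen levels overlapped in both. The fourth, 228502_at, was dim throughout, between 0.405 and 7.42, with 3 DKO-3 arrays above every DKS-5 array and 1 below; it was not tested.

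On the log2(signal + 16) scale, DKS-5 minus DKO-3 for 220738_s_at was -3.76 ± 0.29 (SE) in normoxia and -3.56 ± 0.29 in hypoxia, or 13.6-fold and 11.8-fold lower. These were the 4th and the 5th lowest differences of 32768 probe sets tested. The difference of 228503_at was -3.12 and -3.08 (SE 0.26), and that of 220737_at was -2.15 and -2.37 (SE 0.25). Since the DKS-5 signals are near the floor, the added 16 sets much of the size: with 1 in its place, the normoxia differences of the 3 probe sets were -5.99, -5.04 and -3.77. The 3 probe sets passed the filter on dim signals through DKO-3 alone, and they followed each other over the 8 arrays with a Pearson r of 0.98 to 0.99, a description of arrays that fall into 2 clusters by line.

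**Figure D1:**
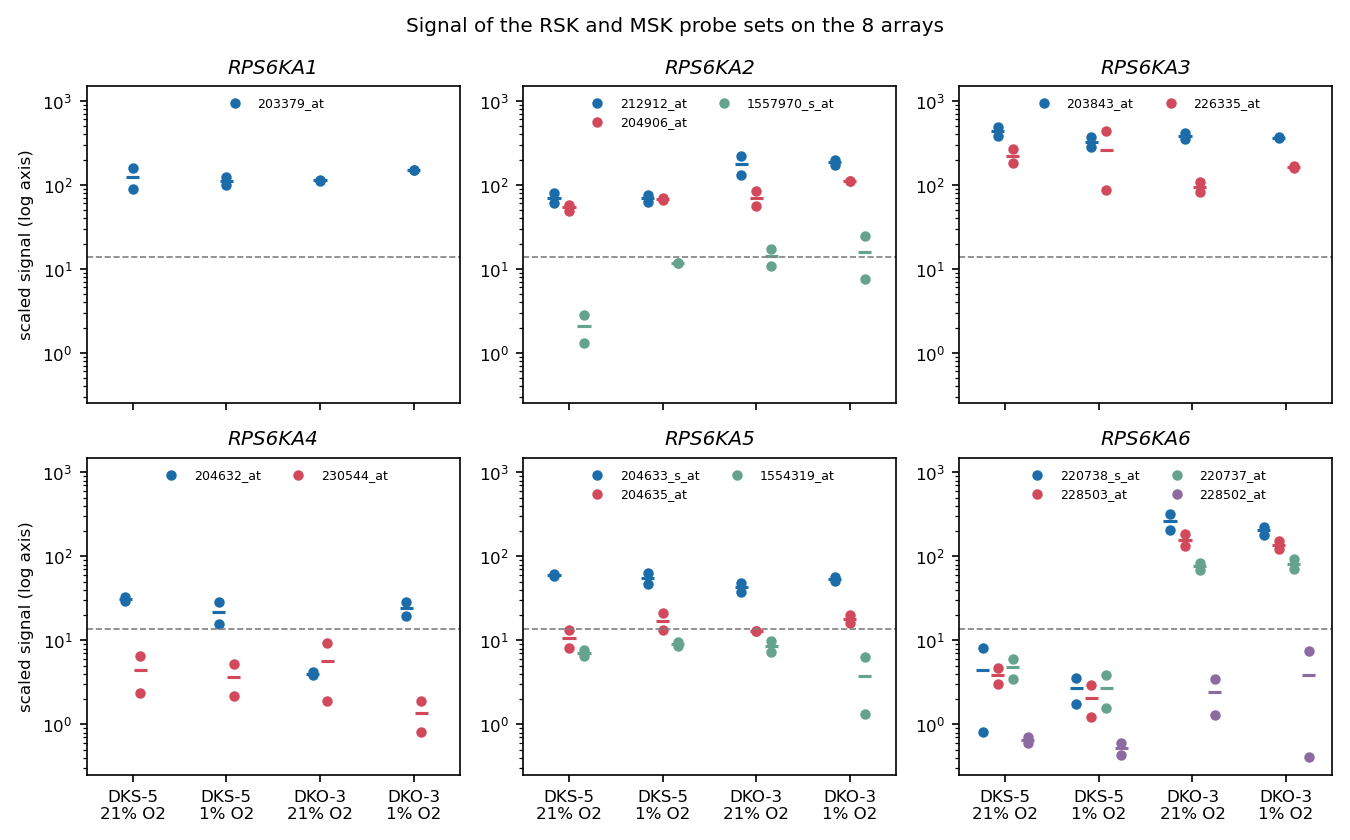
Scaled signal (log axis) of all 15 RSK and MSK probe sets on the 8 arrays, 1 panel a gene; points are arrays, short bars are group means and the dashed line is the filter level of 13.8. The 3 bright probe sets of RPS6KA6 lie between 0.805 and 8.17 in DKS-5 and between 68.3 and 319 in DKO-3.

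RPS6KA6 lies on the minus strand of the X chromosome. Its measured neighbours in RefSeq gene order were read on the same arrays. SH3BGRL, which encodes a small thioredoxin-fold protein, read 5.33, 8.01, 1.44 and 6.72 on the DKS-5 arrays of probe set 201311_s_at and 524, 491, 886 and 635 on those of DKO-3. HMGN5, a nucleosome-binding protein gene, read 0.782, 0.833, 0.487 and 5.58 in DKS-5 and 184, 116, 102 and 156 in DKO-3 with probe set 221606_s_at. Both genes were, like RPS6KA6, dim on every DKS-5 array and bright on every DKO-3 array.

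The difference of SH3BGRL between the lines was -4.53 ± 0.25 in normoxia and -5.27 in hypoxia. Its other probe set, 201312_s_at, gave -5.01 and -4.72. For HMGN5 the difference was -3.27 ± 0.32 and -2.92, while its dim second probe set, 221238_at, lay between 6 and 16.7 on all arrays. These values too are given as a description: the bright probe sets of both genes passed the filter through DKO-3 alone, and SH3BGRL was known to be low in DKS-5.

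Genes farther out on both sides were measured in both lines. BRWD3, the next gene beyond HMGN5, differed by 0.08 in normoxia and 0.42 in hypoxia (adjusted p = 0.986 and 0.428, limma), and group means lay between 217 and 293. On the other side APOOL, a mitochondrial inner membrane protein gene, differed by -0.24 and -0.16 (adjusted p = 0.913 and 0.796), and ZNF711 by 0.02 and -0.20 (adjusted p = 0.997 and 0.787). The second ZNF711 probe set, 207781_s_at, differed by -0.13 in normoxia and -1.07 in hypoxia (adjusted p = 0.977 and 0.0759). POF1B, the fifth measured gene on that side, differed by -0.43 and -1.02 (adjusted p = 0.769 and 0.0656) and its probe set 219756_s_at by 0.00 and -0.56 (adjusted p = 0.999 and 0.219). Of the 7 measured genes between BRWD3 and APOOL, 3 (HMGN5, SH3BGRL and RPS6KA6) were bright in DKO-3 and dim in DKS-5, and the other 4 (POU3F4, CYLC1, HDX and UBE2DNL) were dim on all 8 arrays. For those 4 genes, the arrays give no information on a difference between the lines. The ends of the stretch were set at the nearest tested genes whose line differences did not pass. The share of all genes bright in DKO-3 and dim in DKS-5 was not counted, so nothing is read from the count of 3.

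**Figure D2:**
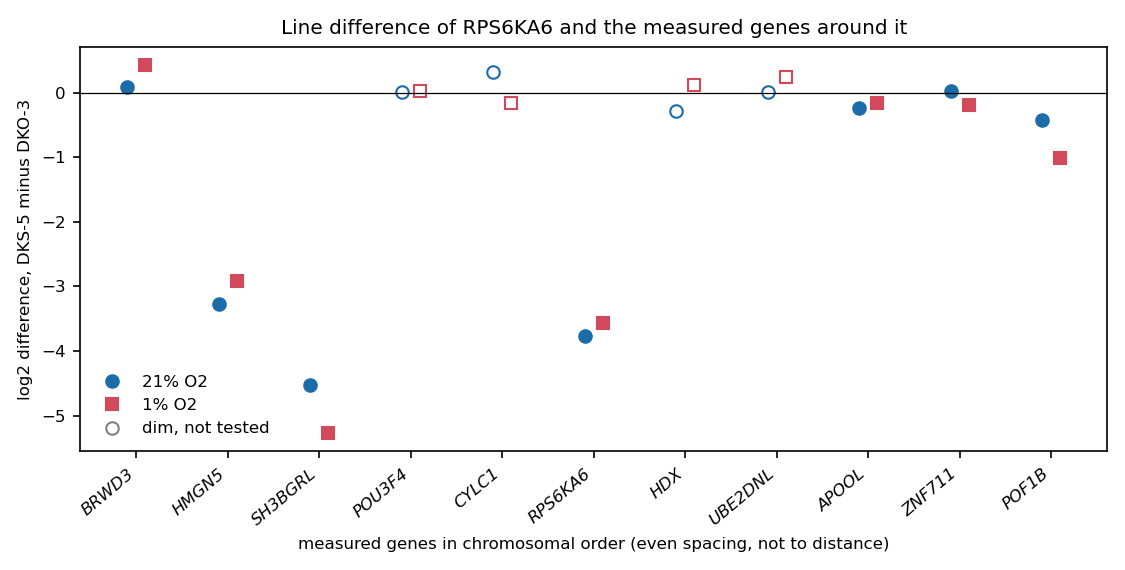
Log2 difference, DKS-5 minus DKO-3, of RPS6KA6 (probe set 220738_s_at) and the 5 measured genes on each side, in gene order and evenly spaced; circles are 21% O2, squares 1% O2, open symbols dim probe sets that were not tested. HMGN5, SH3BGRL and RPS6KA6 lie between -2.92 and -5.27, and the plotted probe sets of the other genes lie between -1.02 and 0.42.

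The 250 bases before the RefSeq start sites are shown for RPS6KA6, for SH3BGRL as a neighbour that was low in the same line, and for RPS6KA3 as the X-linked family member that was bright in both lines. Coordinates are GRCh38.p14, and capitals mark the CRE half-site TGACG or its reverse complement CGTCA, the core to which the MSK substrate CREB binds. RPS6KA6 (chrX:84188200-84188449, minus strand) holds 2 half-sites, SH3BGRL (chrX:81201852-81202101, plus strand) 1, and the RPS6KA3 window (chrX:20266910-20267159, minus strand) 0. Of the windows not shown, that of HMGN5, also low in DKS-5, holds 0. A window of RPS6KA1 and a window of RPS6KA5, genes whose lines overlapped, hold 1 each, and the remaining family windows 0. The count thus does not separate the genes that were low in DKS-5 from the others. At least 1 half-site on either strand stands in 21.2% of 35116 RefSeq promoter windows of this length. The arrays say nothing about factor binding or methylation there.
RPS6KA6: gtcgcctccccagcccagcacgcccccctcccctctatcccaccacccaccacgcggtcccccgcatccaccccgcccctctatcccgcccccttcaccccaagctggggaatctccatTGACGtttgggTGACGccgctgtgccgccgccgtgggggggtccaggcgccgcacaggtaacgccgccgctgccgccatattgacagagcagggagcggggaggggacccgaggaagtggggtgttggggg
SH3BGRL: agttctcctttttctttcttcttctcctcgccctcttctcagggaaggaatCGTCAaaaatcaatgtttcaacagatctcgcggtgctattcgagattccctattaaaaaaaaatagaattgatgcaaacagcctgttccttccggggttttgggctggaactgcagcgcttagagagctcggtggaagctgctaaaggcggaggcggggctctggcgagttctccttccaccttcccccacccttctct
RPS6KA3: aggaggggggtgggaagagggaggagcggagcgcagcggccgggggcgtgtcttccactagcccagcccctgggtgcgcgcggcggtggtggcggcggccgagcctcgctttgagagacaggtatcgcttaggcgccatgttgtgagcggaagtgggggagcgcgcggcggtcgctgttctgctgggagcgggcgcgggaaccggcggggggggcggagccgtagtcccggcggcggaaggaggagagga

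The RPS6KA6 window holds 21 CpG dinucleotides and 71.6% G and C, and 30.2% of the RefSeq windows hold as many CpG or more. RPS6KA3 has 31 CpG in the window shown, and SH3BGRL 11, which is the median of all windows. The hypoxia response core, searched as ACGTG or GCGTG on both strands, occurs 2 times in the RPS6KA6 window, 1 time in that of RPS6KA3 and 0 times in that of SH3BGRL, and 43.2% of all windows hold at least 1. The windows of SH3BGRL and HMGN5 overlap, since these genes are transcribed away from each other. All 6 members had at least 1 window, 11 in all.

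RPS6KA2 encodes RSK3. Its probe set 212912_at read 80.2 and 59.9 in DKS-5 at 21% O2 and 63.1 and 74.8 at 1% O2, against 218 and 132 in DKO-3 at 21% O2 and 199 and 174 at 1% O2. The 4 DKS-5 arrays, from 59.9 to 80.2, all lay below the 4 DKO-3 arrays, from 132 to 218. The difference was -1.12 ± 0.28 in normoxia and -1.25 ± 0.28 in hypoxia, or 2.17-fold and 2.39-fold lower in DKS-5. Unlike RPS6KA6, this transcript was measured above the filter level in both lines.

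The other tested probe set of RPS6KA2, 204906_at, was lower in DKS-5 on both hypoxia arrays, while the normoxia arrays of the lines overlapped. It read 58.1 and 49.4, then 66.5 and 69.7, in DKS-5 normoxia and hypoxia, and 55.3 and 85.5, then 110 and 111, in DKO-3. The line difference was -0.29 ± 0.26 in normoxia and -0.59 ± 0.26 in hypoxia. Over the 8 arrays the 2 probe sets followed each other with r = 0.57, while 212912_at followed the RPS6KA6 probe sets with r = 0.94 to 0.97, both as descriptions. The remaining RPS6KA2 probe set, 1557970_s_at, was dim, from 1.31 to 24.4, and was not tested.

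Over all 4 arrays a line, the lines did not overlap for 4 of the 11 family probe sets tested: 3 of RPS6KA6 and 212912_at of RPS6KA2, each lower in DKS-5. Across all probe sets tested, 7.37% had all DKS-5 arrays below all DKO-3 arrays and 4.55% had them all above. Since the family was picked on this contrast, nothing is read from that count.

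RPS6KA1 encodes RSK1, a ubiquitous family member. Its only probe set, 203379_at, read 89.5 and 158 in DKS-5 at 21% O2 and 123 and 98.8 at 1% O2, against 114 and 112 in DKO-3 at 21% O2 and 151 and 152 at 1% O2. The lines overlapped, and the spread between the DKS-5 normoxia arrays (124 ± 48.4) was wider than the gap between any group means. RPS6KA3 encodes RSK2, the kinase mutated in Coffin-Lowry syndrome, and it was measured by a pair of probe sets that disagreed. The first, 203843_at, read 494 and 382 in DKS-5 at 21% O2 and 372 and 279 at 1% O2, against 416 and 353 in DKO-3 at 21% O2 and 367 and 361 at 1% O2, with the lines overlapping. The second, 226335_at, read 181 and 264, then 86.2 and 433, in DKS-5, and 81.9 and 108, then 157 and 169, in DKO-3. Its line difference was 1.09 ± 0.47 (SE) in normoxia, where the arrays did not overlap, and 0.26 ± 0.47 in hypoxia, where they did. Its DKS-5 hypoxia arrays differed by more than any group means did (260 ± 245), and the probe sets of RPS6KA3 ran against each other over the 8 arrays (r = -0.47).

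RPS6KA4 encodes MSK2. Its probe set 204632_at read 29.2 and 33.2 in DKS-5 at 21% O2 and 28.4 and 15.9 at 1% O2, against 3.92 and 4.16 in DKO-3 at 21% O2 and 19.7 and 29 at 1% O2. The DKO-3 normoxia arrays stood below all others and under the filter level, and the hypoxia arrays of the lines overlapped, between 15.9 and 29. DKS-5 minus DKO-3 was 1.23 ± 0.26 (SE) in normoxia and -0.09 ± 0.26 in hypoxia. RPS6KA5 encodes MSK1. Its probe set 204633_s_at read 58.7 and 61.8, then 63.1 and 46.7, in DKS-5, and 37.5 and 48.9, then 56.2 and 50.4, in DKO-3. A dimmer one, 204635_at, read 13.4 and 8.08, then 13.4 and 21, in DKS-5 and 13, 13, 20.3 and 16.1 in DKO-3. The lines overlapped for both, and the probe sets did not follow each other (r = -0.26). The further MSK probe sets, 230544_at of RPS6KA4 and 1554319_at of RPS6KA5, stayed between 0.805 and 9.92 and were not tested.

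The study also asks how each line responds to low oxygen, a comparison that did not enter the choice of the family. In DKS-5 the 3 RPS6KA6 probe sets were under the filter level and are left out of the counts. Of the other 8 family probe sets, 0 passed an adjusted p of 0.05 with limma, and 0 had an unadjusted p under 0.05; of all probe sets, 0.266% were called and 5.35% had such an unadjusted p. The smallest adjusted p among them was 0.961. Their median difference was -0.11 against 0 over all probe sets, and 2 of 8 were positive, against 50.2% over all probe sets. The hypoxia arrays lay wholly above the normoxia arrays for 2 of the 8 and wholly below for 2, where 17.3% and 16.7% of all probe sets did so.

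In DKO-3, 0 of 11 passed the same threshold with limma, against 0.177% of all probe sets, and 2 of 11 had an unadjusted p under 0.05, against 8.07%. The smallest adjusted p was 0.256 and the median difference 0.23 against 0.04 over all probe sets. Of the 11 differences 8 were positive, against 55.5% over all probe sets. The hypoxia arrays lay wholly above the normoxia arrays for 6 family probe sets and wholly below for 0, where 22.7% and 14.9% of all probe sets did so. Both DKO-3 hypoxia arrays also had lower 3' to 5' ratios than both DKO-3 normoxia arrays, so ratio and oxygen level cannot be told apart there. With the mean log2 ratio of ACTB and GAPDH as a covariate, called probe sets in DKO-3 hypoxia numbered 1 in place of 58.

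The 2 probe sets under that unadjusted level in DKO-3 were 204632_at of RPS6KA4 and 204906_at of RPS6KA2. For RPS6KA4, the mean signal was 4.04 ± 0.17 in DKO-3 normoxia and 24.4 ± 6.61 in hypoxia, a difference of 1.00 ± 0.26 on the log2 scale (95% interval 0.45 to 1.55, adjusted p = 0.256, limma). In DKS-5 it was 31.2 ± 2.88 and 22.1 ± 8.84, a difference of -0.33 ± 0.26 (interval -0.87 to 0.22, adjusted p = 0.969). The DKO-3 arrays did not overlap and neither did those of DKS-5, in opposite directions, and the difference between the responses was -1.33 ± 0.36 (interval -2.10 to -0.55, adjusted p = 1, limma). With 1 added in place of 16, the DKO-3 difference was 2.31 (adjusted p = 0.108); with the 3' to 5' covariate it was 1.15 (adjusted p = 1).

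For 204906_at of RPS6KA2 the difference was 0.57 ± 0.26 in DKO-3 (adjusted p = 0.608, limma) and 0.27 ± 0.26 in DKS-5 (adjusted p = 0.979). Averaged over both lines it was 0.42 ± 0.18 (95% interval 0.03 to 0.82, adjusted p = 0.42, limma). In each line both hypoxia arrays lay above both normoxia arrays. The other RPS6KA2 probe set, 212912_at, gave 0.12 in DKO-3 and -0.01 in DKS-5 (SE 0.28). In the average over both lines 0 of the 8 family probe sets without RPS6KA6 passed with limma and 1 had an unadjusted p under 0.05, against 0.61% and 11.1% of all probe sets. The difference between the lines' responses gave 0 calls among the 8 and 0% of all probe sets, with 1 of 8 and 2.25% under an unadjusted p of 0.05.

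No RPS6KA6 probe set passed the test for hypoxia in either line. Hypoxia minus normoxia in DKO-3 was -0.31 ± 0.29 for 220738_s_at (95% interval -0.93 to 0.30), -0.17 ± 0.26 for 228503_at (-0.72 to 0.38) and 0.08 ± 0.25 for 220737_at (-0.46 to 0.61). The adjusted p was 0.823, 0.908 and 0.964 (limma). In DKS-5 the values were -0.11, -0.13 and -0.15, all from signals under the filter level, so they carry no information on a response. A doubling, 1 on the log2 scale, lies outside all 3 DKO-3 intervals.

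RPS6KA1 differed by 0.37 ± 0.28 in DKO-3, where the arrays did not overlap, and by -0.10 ± 0.28 in DKS-5 (adjusted p = 0.774 and 0.993, limma). RPS6KA3 gave -0.41 ± 0.24 in DKS-5 and -0.07 in DKO-3 for 203843_at (adjusted p = 0.961 and 0.964). For 226335_at it gave -0.13 ± 0.47 and 0.70 ± 0.47 (adjusted p = 0.995 and 0.749), and 0.28 ± 0.33 averaged over the lines (adjusted p = 0.812). That average rested on 1 array: without DKS-5 hypoxia replicate 1 it was 0.82 (adjusted p = 0.0496), the only alternative in which a family probe set passed in a hypoxia comparison, and without DKS-5 hypoxia replicate 2 it was -0.25. RPS6KA5 gave -0.11 and 0.23 for 204633_s_at and 0.31 and 0.23 for 204635_at, in DKS-5 and DKO-3 (adjusted p from 0.85 to 0.993).

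**Figure D3:**
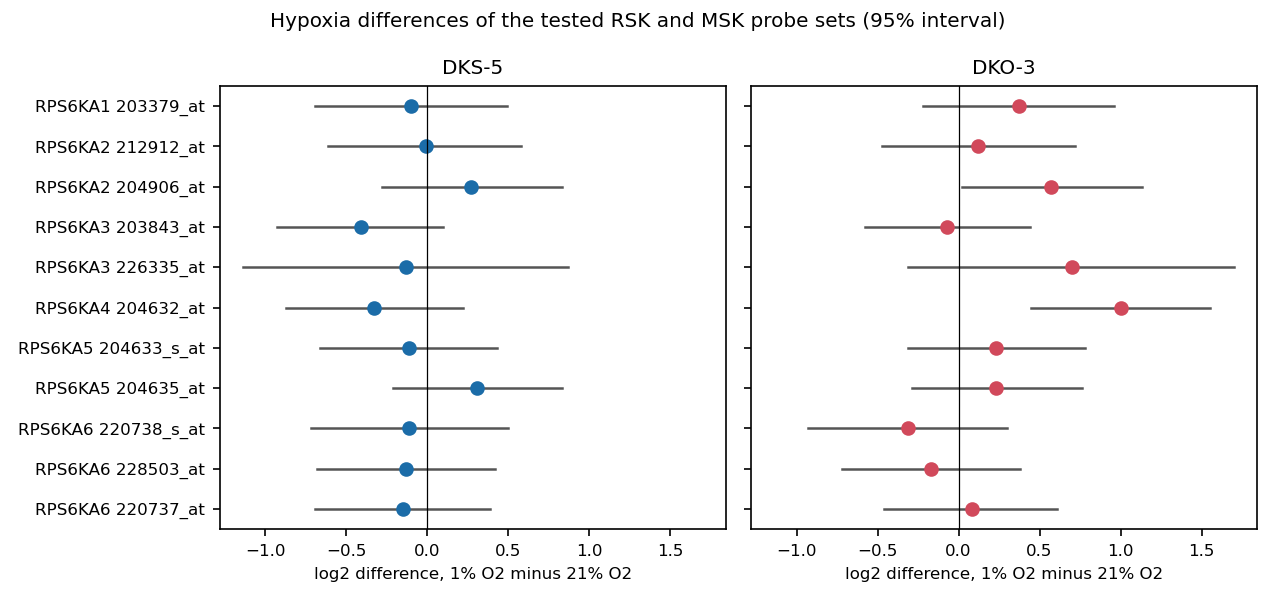
Log2 difference, 1% O2 minus 21% O2, of the 11 tested RSK and MSK probe sets in DKS-5 (left) and DKO-3 (right); points are fitted differences and lines 95% intervals. In DKS-5 every interval includes 0, and in DKO-3 those of RPS6KA4 204632_at (0.45 to 1.55) and RPS6KA2 204906_at (0.02 to 1.13) do not, before adjustment over all probe sets.

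The rest of the pathway was read from lists of genes, each represented by its brightest probe set. Of 17 kinases and adaptors upstream of RSK and MSK, 11 could be tested, and 0 passed in any comparison with limma. Their median hypoxia difference was 0.19 in DKS-5 and 0.28 in DKO-3, against 0 and 0.04 over all probe sets. In each line 9 of 11 were positive, against 50.2% and 55.5% over all probe sets. MAP2K1, which encodes the ERK kinase MEK1, read 2260 and 1930 in DKS-5 normoxia and 2710 and 3390 in hypoxia, a difference of 0.54 ± 0.17 (adjusted p = 0.699). In DKO-3 the smallest p values belonged to GRB2, the adaptor that brings SOS to receptors, and MAP2K6, a p38 kinase, at 0.63 ± 0.23 and 0.76 ± 0.29 (adjusted p = 0.513 and 0.537). PDPK1, which completes RSK activation, differed by 0.15 and -0.04 in DKS-5 and DKO-3.

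Between the lines, 1.15% of all probe sets were called in normoxia and 2.08% in hypoxia. Of 5 other kinases activated by ERK or p38, 1 passed between the lines and 0 in hypoxia. MAPKAPK3, a p38 effector kinase, read 751 and 926, then 800 and 1000, in DKS-5 and 203 and 408, then 322 and 343, in DKO-3. All DKS-5 arrays lay above all DKO-3 arrays. The difference was 1.48 ± 0.28 in normoxia and 1.39 ± 0.28 in hypoxia (adjusted p = 0.0161 and 0.0186, limma), while its other probe set gave 0.65 and 0.29. The first call was lost without either DKS-5 normoxia array or DKO-3 normoxia replicate 1 (adjusted p = 0.0881, 0.239 and 0.205), and the second without DKS-5 hypoxia replicate 2 or either DKO-3 hypoxia array (0.0919, 0.162 and 0.0695). Of 13 related AGC kinases 9 were tested and 0 passed in any comparison.

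Of 22 substrates and partners of RSK or MSK, 20 were tested, and ETV1 alone passed in the lines' comparisons, with 0 in hypoxia. ETV1, an ETS transcription factor that MSK1 and RSK phosphorylate, read 122 and 86.5, then 111 and 81.5, in DKS-5 and 20.3 and 31.9, then 12.8 and 9.48, in DKO-3. The difference was 1.51 ± 0.27 in normoxia and 2.04 ± 0.27 in hypoxia (adjusted p = 0.0117 and 0.00115, limma). Leaving out either DKS-5 normoxia array or DKO-3 normoxia replicate 1 lost the normoxia call (adjusted p = 0.197, 0.0517 and 0.168), and its other tested probe sets gave 0.29 and 0.05, and 0.19 and 0.20. CREB1, the MSK target, differed by -0.15 and -0.02 between the lines (adjusted p = 0.953 and 0.978).

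Of 18 immediate-early genes downstream of ERK, SRF and CREB, 13 were tested, and 1 passed between the lines in hypoxia. IER3, an immediate early response gene, read 5470 and 5940 in DKS-5 hypoxia and 3230 and 2770 in DKO-3 hypoxia. The difference was 0.93 ± 0.16 (adjusted p = 0.00616, limma), and in normoxia it was 0.46 ± 0.16 (adjusted p = 0.3). The hypoxia call was lost without DKO-3 hypoxia replicate 2 (adjusted p = 0.057), with no array scaling (0.47, adjusted p = 0.0555) and with the 3' to 5' covariate (adjusted p = 0.0877). DUSP6, the ERK phosphatase whose transcript follows ERK activity, differed by 0.26 and 0.13 between the lines (adjusted p = 0.858 and 0.805). Neither line's immediate-early genes changed past the threshold in hypoxia, with medians of -0.03 and 0.07.

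**Figure D4:**
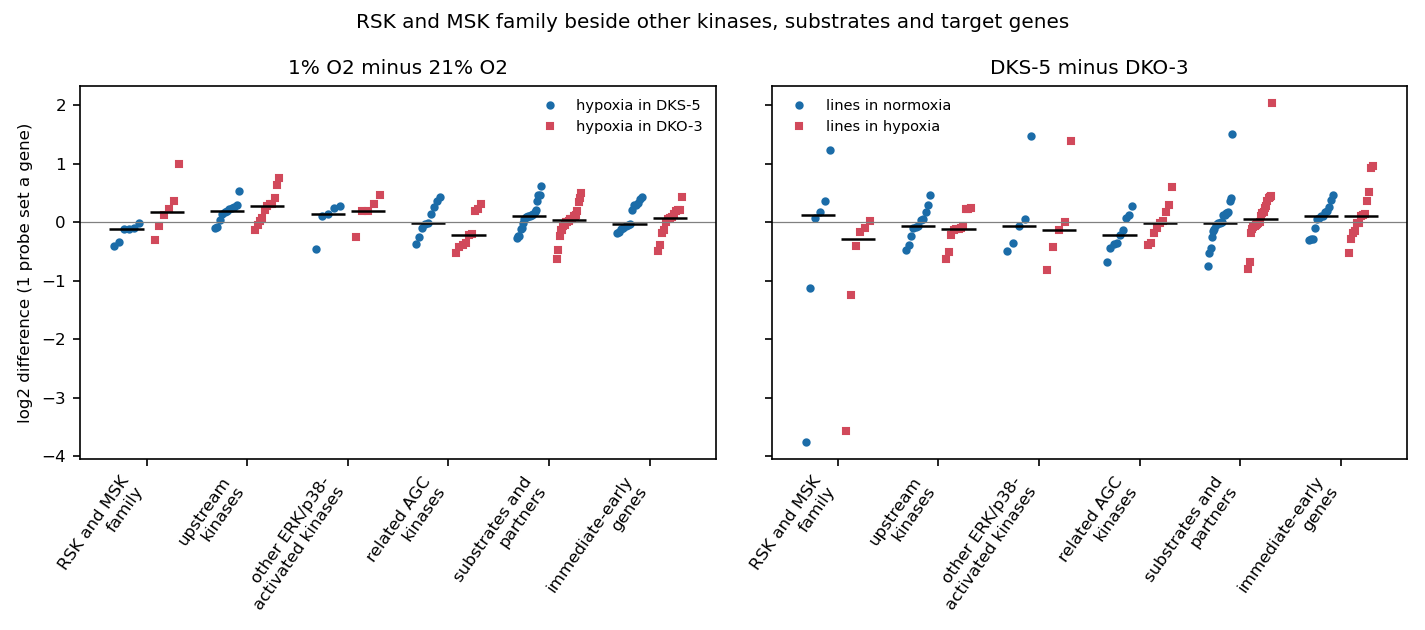
Log2 differences of the tested genes of 6 lists, 1 probe set a gene: hypoxia in each line (left) and DKS-5 minus DKO-3 at each oxygen level (right); points are genes and black bars list medians. The list medians lie between -0.29 and 0.28, and the lowest points between the lines are RPS6KA6 at -3.76 and -3.56.

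The genes whose log2 values most resembled each member's brightest probe set were found by Pearson r over the 8 arrays, among 12734 genes. For RPS6KA6 they were INPP5D (r = 0.992), PRKCQ (0.992), G0S2 (0.991), MAGED1 (0.99) and ABTB3 (0.99). INPP5D encodes an inositol phosphatase, PRKCQ a protein kinase C, and G0S2 an inhibitor of the lipase ATGL. MAGED1, which unlike RPS6KA6 was bright in both lines, averaged 919 and 880 in DKS-5 and 1740 and 1860 in DKO-3. INPP5D averaged 1.52 and 2.48 in DKS-5 against 48 and 41.8 in DKO-3. In all, 134 genes (1.05%) had r over 0.95 with RPS6KA6, and all such values share the split of the arrays by line.

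For RPS6KA2 212912_at the closest were CRTAM (r = 0.992), SLC40A1 (0.989) and RABGAP1L (0.987), with 80 genes (0.628%) over 0.95. SLC40A1, the iron exporter ferroportin, averaged 25.1 and 25.2 in DKS-5 and 72.9 and 70.3 in DKO-3. The other members had few close companions. RPS6KA1 was closest to PTPMT1 (0.962), UTS2R (0.954) and LOC101928728 (0.94), and RPS6KA3 to MTERF4 (0.935), ZCCHC7 (0.934) and NDUFS1 (0.928), with 0 genes over 0.95. RPS6KA4 was closest to TDP1 (0.966), FUT8 (0.938) and DNAAF5 (0.935), and RPS6KA5 to POMGNT2 (0.961), MRPL57 (0.954) and ZMYND19 (0.953).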

How the data were processed

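Per the labels' protocols, total RNA was column-purified, amplified with a NuGEN Ovation kit and biotin-labelled. The authors deposited linear MAS5 intensity values (MAS5 per the submitters' processing notes) for 54675 probe sets, 62 of them controls; target and MAS5 version are not given in the sources used here. Each array was scaled to a common 2% trimmed mean over probe sets without controls. Probe sets with a mean above the 40th percentile (32768) were tested on log2(signal + 16) with limma 3.58.1 in R 4.3.3 (1 mean per group, trended eBayes, two-sided, Benjamini-Hochberg adjustment over all tested, threshold 0.05), with 4 residual degrees of freedom and a median of 10.8 prior ones. Fold changes are on that scale and understate changes of dim probe sets. Levels were compared only within a probe set. The script was checked on simulated data. Probe sets given exactly 1 gene symbol in the platform annotation numbered 41091; no others were named. The number of arrays limits the precision.

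The members and lists were chosen with earlier results of these data known. Genes in the text come from this rule: all members with every probe set, up to 4 genes of each list past the threshold in a comparison (or the 2 with the smallest p), the 5 measured genes on each side of RPS6KA6, and the genes of highest r with each member's brightest probe set (5 for RPS6KA6, 3 for others). PDPK1, CREB1 and DUSP6 were named beside the rule for their roles. Promoters are from RefSeq (GRCh38.p14). Alternatives tried were no scaling, quantile normalization, a pseudocount of 1, no filter, 1 probe set per gene, the replicate block, the mean log2 3' to 5' ratio of ACTB and GAPDH as covariate and leaving out each array.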

Additional observations from a re-analysis of the deposited data

Results flagged for a closer look

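RPS6KA4 204632_at read in opposite directions under hypoxia in the lines: both DKS-5 hypoxia arrays lay below both normoxia arrays and both DKO-3 hypoxia arrays above. Of all probe sets tested, 16.7% lay wholly lower in DKS-5 hypoxia and 22.7% wholly higher in DKO-3 hypoxia. The share with opposite directions in the lines was not counted, so nothing is read from the pattern. The difference between the responses was -1.33 on the log2 scale (limma, adjusted p = 1 over all probe sets). The dim RPS6KA5 probe set 1554319_at did the reverse, with 7.66 and 6.54, then 8.49 and 9.64, in DKS-5 normoxia and hypoxia, and 9.92 and 7.35, then 1.32 and 6.27, in DKO-3. Its difference was 0.44 and was not tested, since all its signals are under the filter level.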

How the results depend on the processing

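With 2 arrays a group, only large differences can pass, and DKS-5 values of RPS6KA6 are limited by the floor of the signal. The family gave 0 calls in the hypoxia comparisons under every alternative run, except 1 in the average over both lines without DKS-5 hypoxia replicate 1 (range over arrays left out 0 to 1; RPS6KA3 226335_at, 0.82). The difference between the responses gave 0 calls over all probe sets under every alternative run.

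Counts over all probe sets moved more. Hypoxia in DKS-5 (87 calls) gave 39 with no array scaling, 37 with no filter and 31 to 193 with 1 array left out. Hypoxia in DKO-3 (58) gave 116 with no scaling, 1 with no filter, 1 with the 3' to 5' ratio as covariate and 1 to 77 with 1 array left out. The average (200) gave 71 with no filter, 64 with the covariate and 89 to 784 with 1 array left out. The lines in normoxia (378) gave 130 with no filter and 111 to 517 with 1 array left out. The lines in hypoxia (682) gave 234 with no filter, 90 with the covariate and 200 to 854 with 1 array left out. With no scaling they gave 5211, of which 111 were higher and 5100 lower in DKS-5 (188 and 494 with scaling); the median of all probe sets there shifted by -0.42. The cause of these moves was not tested.

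With the replicate number as a block, hypoxia in DKO-3 gave 115 calls, the average 372, the lines in normoxia 587 and the lines in hypoxia 1180; no family call was gained in hypoxia. The numbers do not pair the samples by any label, and the correlation of replicate 1 minus replicate 2 was 0.14 between the DKS-5 groups, -0.06 between the DKO-3 groups, 0.21 between the lines in normoxia and 0.35 between them in hypoxia.

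Of the members' hypoxia differences under the alternatives, 353 kept direction and side of the threshold, 1 passed it and 24 changed sign, none of them past the threshold. With the covariate the sign changed for RPS6KA3 203843_at in DKO-3 (0.23, and 0.11 with no scaling), RPS6KA2 212912_at in DKS-5 (0.08), RPS6KA6 220737_at in DKO-3 (-0.11, and -0.05 with quantile normalization), 220738_s_at in DKS-5 (0.01) and DKO-3 (0.11), 228503_at in DKO-3 (0.09), and RPS6KA3 226335_at in DKO-3 (-0.31) and on average (-0.36). With 1 array left out, the ranges that crossed 0 were -0.09 to 0.24 (220737_at, DKO-3), -0.18 to 0.16 and -0.21 to 0.45 (212912_at, DKS-5 and DKO-3), -0.38 to 0.03 (228503_at, DKO-3), -0.18 to 0.04 (203843_at, DKO-3), -0.25 to 0.82 and -1.20 to 0.93 (226335_at, average and DKS-5), -0.46 to 0.26 (RPS6KA1 203379_at, DKS-5), -0.37 to 0.15 (220738_s_at, DKS-5) and -0.28 to 0.05 (RPS6KA5 204633_s_at, DKS-5). Under the alternatives there were 174 line differences of RPS6KA6 and of 212912_at, 204632_at and 226335_at. Of these, 154 moved by less than the limma SE of the main difference and 20 by that much or more. The 3 RPS6KA6 probe sets moved most with a pseudocount of 1, to -5.85, -5.54 and -4.52 in hypoxia. Sign changed in 4, all in hypoxia: 226335_at (0.26) was -0.14 with no scaling and -0.81 without DKS-5 hypoxia replicate 2, and 204632_at (-0.09) was 0.15 without that array and 0.08 without DKO-3 hypoxia replicate 2. The 212912_at difference in normoxia (-1.12) was -0.79 and -1.45 without either DKO-3 normoxia array. With no filter, the calls of MAPKAPK3 (adjusted p = 0.113 and 0.104), ETV1 in normoxia (0.105) and IER3 (0.0658) were lost, and with the covariate that of ETV1 in hypoxia (0.0678).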
